A study of Mus musculus with 2 samples.

Results

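Fibroblast growth factors (FGFs) are secreted proteins that signal through receptor tyrosine kinases, and the 10 genes described here are 6 ligands (*Fgf1*, *Fgf2*, *Fgf7*, *Fgf9*, *Fgf10* and *Fgf18*) and all 4 kinase receptors (*Fgfr1* to *Fgfr4*). They were chosen by name out of 31253 measured genes, and each level is the number of a gene's unique molecular identifiers (UMIs, 1 per captured RNA molecule) summed over a cell type, per 1000000 UMIs of that type (CPM). Of the 10, 9 had at least 20 UMIs in each library. *Fgfr4*, a receptor best known in liver and muscle, had 7 UMIs in the control library and 1 in the other, and is not described further.

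FGF ligands bind their receptors together with heparan sulfate chains at the cell surface, and the receptors then act through the adaptor FRS2 on the MAP kinase cascade. Sprouty, Spred and dual-specificity phosphatase proteins, whose genes the pathway turns on, damp it again. In the skeleton, FGF18 and FGF9 act mainly on FGFR1, FGFR2 and FGFR3 in osteogenic cells and cartilage, whereas FGF7 and FGF10 prefer the FGFR2 splice form of epithelia. The gene counts used here do not separate receptor splice forms.

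The cells came from the periosteum, the membrane around bone, of femurs and tibias of mice aged 8 weeks, and were measured in 2 BD Rhapsody libraries, 1 per genotype. The control was labelled Prx1 Cre; Ai9/+ and the other library Prx1 Cre; Ai9/+; Piezo1 fl/fl. In both, Cre under a limb mesenchyme enhancer of *Prrx1* switches on the Ai9 reporter, and Prx1-positive cells were sorted. In the second, it also acts on loxP-flanked *Piezo1*, which encodes a mechanosensitive ion channel. The number of mice behind each library is not given in the sources used here. With 1 library a genotype, genotype and library cannot be told apart. No test was possible, and every interval is a 95% interval for counting error alone. After filtering, 4418 of 6118 control barcodes (25488763 UMIs, median 4812.5 per cell) and 5084 of 7469 Piezo1 fl/fl barcodes (28577111 UMIs, median 4593) were retained. The libraries shared 50 barcode sequences.

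Each library was clustered without the FGF genes, and clusters were named from fixed markers. In the control these were Pi16 fibroblast-like (856 cells), SSPC-1-like (795), Gdf10 fibroblast-like (779), SSPC-2-like (743), blood lineage-like (396), mural-like (296), tendon-like (214), endothelial-like (172), mature osteoblast-like (60) and lining-like (55) cells. SSPC-1 and SSPC-2 are the skeletal stem/progenitor populations of the fibrous and the cambium (inner, bone-forming) layer. The Piezo1 fl/fl library had 1177 Gdf10 fibroblast-like, 654 Pi16 fibroblast-like, 392 SSPC-2-like, 323 tendon-like and 363 mural-like cells, but no separate mature osteoblast-like cluster. Its counterpart of SSPC-1, cluster 0 (1049 cells), had all 6 SSPC-1 markers, but its 10 leading genes held 4 tendon markers against 1 of SSPC-1, so it was given no name and is compared by its number. The leading genes of the control SSPC-1-like cells held as many tendon markers (*Chad*, *Cilp2*, *Fmod*) as SSPC-1 markers (*Egfl6*, *Angptl7*, *Col8a1*), a tie that kept the name. Mean log2 ratios of SSPC-1 and tendon markers over the other clusters were 4.82 and 4.18 there, and 4.45 and 4.35 in cluster 0. The tendon markers summed to 12633 CPM in cluster 0 and to 13110 CPM in the control SSPC-1-like cells. The SSPC-1 markers summed to 15250 CPM in control tendon-like cells, led by *Angptl7* at 12103 CPM. In the SSPC-1-like cells they summed to 11699 CPM, led by *Col8a1* at 5447 CPM. Neither *Angptl7* nor this sum was thus higher in the SSPC-1-like cells. The tendon markers summed to 28891 CPM in the tendon-like cells. A perineurial-like cluster of the control (33 cells) and a chondrocyte-like cluster of the Piezo1 fl/fl library (27 cells) were under the minimum of 50 cells. They are left out of the order of types and described on their own.

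The labelled sort was checked against defining genes. In the control, *Prrx1* was seen in 98.4% of the SSPC-1-like group and in 84.5% of the SSPC-2-like group, against 13.6% of blood lineage-like and 12.2% of endothelial-like cells. *Ptprc*, which encodes the pan-leukocyte antigen CD45, was found in 78.8% of the blood lineage-like cells. Cells that lack the label's lineage markers were thus present in the sorted libraries. A lower CPM of a type can reflect fewer positive cells or less RNA in each, and summed UMIs do not separate the 2.

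For *Fgf18*, whose highest control type was SSPC-1-like, and *Fgfr2*, whose highest was SSPC-2-like, the 250 bases before the RefSeq transcription start (GRCm38.p6, printed on the gene's strand, CG pairs in capitals) are shown to place the genes. The *Fgf18* window is chr11:33147401-33147650 (minus strand) and that of *Fgfr2* is chr7:130266809-130267058 (minus strand).
Fgf18: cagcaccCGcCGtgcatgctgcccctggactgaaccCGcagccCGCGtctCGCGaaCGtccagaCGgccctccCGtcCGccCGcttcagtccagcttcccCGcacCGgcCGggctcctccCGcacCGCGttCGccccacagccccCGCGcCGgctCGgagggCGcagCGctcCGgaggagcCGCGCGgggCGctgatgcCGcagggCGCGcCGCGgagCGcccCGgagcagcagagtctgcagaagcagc
Fgfr2: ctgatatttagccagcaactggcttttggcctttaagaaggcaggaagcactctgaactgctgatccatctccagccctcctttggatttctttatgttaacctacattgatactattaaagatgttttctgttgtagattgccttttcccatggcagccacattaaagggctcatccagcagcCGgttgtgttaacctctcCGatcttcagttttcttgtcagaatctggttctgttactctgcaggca
The *Fgf18* window held 37 CG pairs at 77.2% G and C, and 2.2% of 32851 RefSeq windows of this length held at least as many. The *Fgfr2* window held 2 CG pairs at 44% G and C, and 29% of windows held no more. The median window had 6 CG pairs and 52.4% G and C, so the windows of this ligand and this receptor lay on opposite sides of it. The 9 windows found for 8 of the 10 genes were searched on both strands for CATTCC (TEAD, present in 12.6% of all windows), CTTTGA (TCF/LEF, 13.8%) and TGTGGT (RUNX, 14%), and 0 of 9 held any of these letters. *Fgf1* and *Fgfr1* had no window in the table.

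In the GENCODE vM21 annotation (GRCm38) *Fgf18* lies on chromosome 11 at 33117430-33147400 and *Fgfr2* on chromosome 7 at 130162451-133123350. An annotated *Fgfr2* transcript shares exons with *Ctbp2* on the same strand, so reads of that stretch are uncertain. *Fgfr1* lies on chromosome 8 at 25513654-25575718 and *Fgfr3* on chromosome 5 at 33721674-33737068. *Fgf2* (chromosome 3, 37348346-37410108) shares exons with *Nudt6* on the opposite strand and with *Gm43439* on its own. *Fgf7*, *Fgf9* and *Fgf10* lie on chromosomes 2, 14 and 13.

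**Figure D1:**
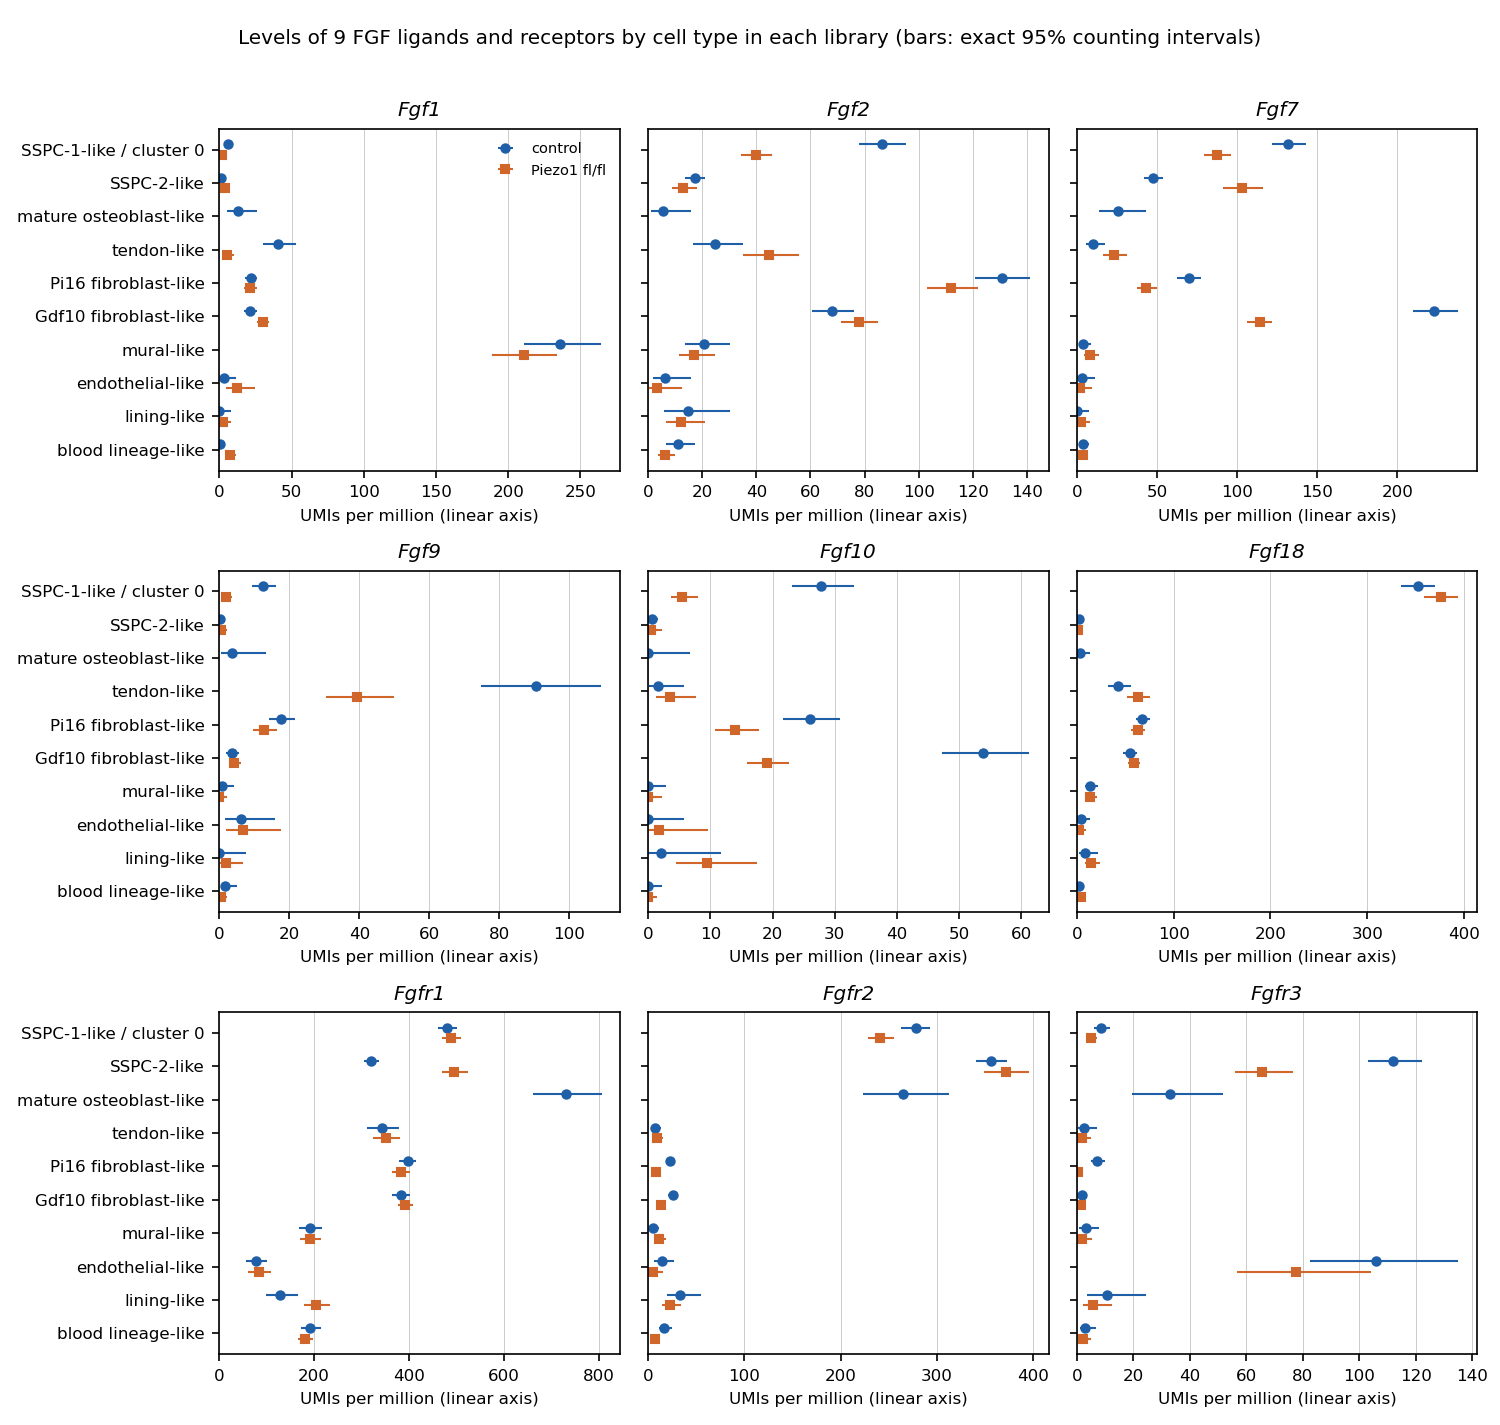
Level of each of the 9 measured FGF genes in each named cell type (CPM, linear axis). The control and Piezo1 fl/fl libraries are shown, with 95% intervals for counting error. *Fgf18* is highest in SSPC-1-like cells and cluster 0 (352 and 376 CPM), *Fgf1* in mural-like cells (236 and 211 CPM) and *Fgf9* in tendon-like cells (90.6 and 39.3 CPM).

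The ligands differed in where they were found. *Fgf18*, a ligand of osteoprogenitors and chondrocytes, reached 352 CPM (335 to 370) in control SSPC-1-like cells and 376 CPM (359 to 394) in cluster 0. The next type in both libraries was Pi16 fibroblast-like, at 67.6 and 63 CPM. These single clusters therefore held 70.7% and 66.5% of all *Fgf18* UMIs of their libraries. In SSPC-2-like cells *Fgf18* stood at 1.89 CPM (10 UMIs) and 1.56 CPM (4 UMIs), the lowest of all named types but not apart from blood lineage-like (control) or endothelial-like (Piezo1 fl/fl) cells. With every cell thinned to 2500 UMIs, an *Fgf18* UMI was seen in 41.5% of SSPC-1-like cells (298 of 718) and 39.8% of cluster 0 cells (355 of 891). The shares in SSPC-2-like cells were 0.281% (2 of 713) and 0.271% (1 of 369). They did not differ beyond counting error from those in blood lineage-like cells, 0.332% (1 of 301) and 1.13% (5 of 441), where the gene should be lacking, so no expression is read from them. All 4 *Fgf18* UMIs of the Piezo1 fl/fl SSPC-2-like cells lay in 1 cell.

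*Fgf1*, a ligand without a classical secretion signal, was highest in mural-like cells, named after the smooth muscle cells and pericytes around vessels. It measured 236 CPM (211 to 264) in the control and 211 CPM (189 to 234) in Piezo1 fl/fl mural-like cells, which held 48.8% and 47% of its UMIs. The next control type of at least 50 cells, tendon-like, was 5.78-fold lower (4.32 to 8). Both fibroblast groups lay between 21.2 and 30.2 CPM in the 2 libraries, and SSPC-2-like cells at 1.32 and 3.91 CPM.

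*Fgf9*, known for its role in joint and skeletal growth, was highest in tendon-like cells, at 90.6 CPM (74.7 to 109) in control and 39.3 CPM (30.5 to 50) in Piezo1 fl/fl cells. Pi16 fibroblast-like cells followed at 17.6 and 12.8 CPM. In SSPC-2-like cells a single UMI was counted in each library. An *Fgf9* UMI was seen in 22% of control tendon-like cells, whose median was 4870 UMIs. A missing UMI at this depth does not show that a cell lacks the gene's RNA.

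*Fgf7* and *Fgf10*, the pair that mesenchyme sends to epithelia, were both highest in Gdf10 fibroblast-like cells among named types of at least 50 cells. *Fgf7* measured 223 CPM (210 to 238) there in control cells and 114 CPM (106 to 122) in Piezo1 fl/fl cells. *Fgf10* measured 53.9 CPM (47.2 to 61.3) and 19.1 CPM (15.9 to 22.7). They parted in SSPC-2-like cells, where *Fgf7* was at 47.6 and 103 CPM while *Fgf10* had 3 UMIs and 1 UMI. The pooled *Fgf7* levels of Gdf10 fibroblast-like and SSPC-2-like Piezo1 fl/fl cells did not differ beyond counting error. This holds for the pool, not for cluster 9 alone, since the Gdf10 group there joined clusters 1 and 9, which had 98.1 and 167 CPM of *Fgf7*, 22.7 and 6.61 CPM of *Fgf10* and 71.6 and 16.5 CPM of *Fgf18*. An unnamed Piezo1 fl/fl cluster (cluster 6, 310 cells) lay above the pooled Gdf10 group in both, at 149 CPM of *Fgf7*, between clusters 1 and 9, and 33.4 CPM of *Fgf10*.

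*Fgf2*, the basic fibroblast growth factor, followed another order. Pi16 fibroblast-like cells were highest, at 131 CPM (121 to 141) and 112 CPM (103 to 122). In the control, SSPC-1-like cells followed at 86.3 CPM and Gdf10 fibroblast-like cells at 68.1 CPM. Among Piezo1 fl/fl cells the Gdf10 fibroblast-like group was second at 77.9 CPM, and cluster 0 stood at 39.9 CPM. The Pi16 group there pooled clusters 3 and 8, at 67.9 and 194 CPM, so its first place rested on cluster 8. The separate antisense gene *Fgf2os* had 5 and 4 UMIs.

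The receptors had other patterns. *Fgfr1*, the receptor of most mesenchymal cells, was measured in every named type, from 76.5 CPM in endothelial-like to 732 CPM (662 to 807) in mature osteoblast-like control cells. SSPC-1-like cells followed at 480 CPM (461 to 501), and SSPC-2-like cells were at 320 CPM (305 to 336). The SSPC-2-like cells (496 CPM) and cluster 0 (489 CPM) of the Piezo1 fl/fl library did not differ beyond counting error. *Fgfr1* thus varied less between types than any of the ligands did.

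*Fgfr2*, a receptor of osteoprogenitors, was highest in the SSPC and osteoblast types. It measured 356 CPM (340 to 373) in the SSPC-2-like cells of the control. Its SSPC-1-like cells had 278 CPM (263 to 293) and its mature osteoblast-like cells 265 CPM (223 to 312). These last 2 did not differ beyond counting error. Every other control type of at least 50 cells was at 33.6 CPM or lower. Piezo1 fl/fl levels were 372 CPM (349 to 396) in SSPC-2-like cells and 241 CPM (228 to 255) in cluster 0. Of all *Fgfr2* UMIs of the control, 51.9% lay in SSPC-2-like cells and 35.1% in SSPC-1-like cells.

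*Fgfr3*, the receptor known for restraining growth plate cartilage, was highest in a pair of types among those of at least 50 cells. The level in SSPC-2-like cells was 112 CPM (103 to 122) in control mice and 65.6 CPM (56.1 to 76.4) in Piezo1 fl/fl mice. Endothelial-like cells had 106 CPM (82.4 to 135) and 77.6 CPM (56.6 to 104), and in neither library did the 2 types differ beyond counting error. Because SSPC-2-like cells were more numerous, they held 74.1% and 56.9% of its UMIs. At 2500 UMIs per cell, *Fgfr3* was seen in 22.7% and 15.7% of SSPC-2-like cells, in 19.5% and 17.9% of endothelial-like cells, and in 0.332% and 0.454% of blood lineage-like cells. The endothelial-like cells carried *Pecam1*, an endothelial adhesion gene, in 98.8% and 97.2% of cells.

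The 2 small clusters carried several of these genes at wide intervals. Perineurial-like control cells, the sheath cells of nerves, had 157 CPM of *Fgf1* (103 to 229), 169 CPM of *Fgfr2* (113 to 242), 75.6 CPM of *Fgfr3* (40.3 to 129) and 58.2 CPM of *Fgf10* (27.9 to 107). Chondrocyte-like Piezo1 fl/fl cells had 138 CPM of *Fgf1* (95.5 to 193), 142 CPM of *Fgfr2* (98.9 to 198), 97.4 CPM of *Fgfr3* (62.4 to 145), 110 CPM of *Fgf2* and 507 CPM of *Fgfr1*. Mural-like cells were thus not alone in *Fgf1*, nor the progenitor, osteoblast and endothelial groups in *Fgfr2* and *Fgfr3*.

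Among named types of at least 50 cells and cluster 0, leaving out cluster 6, the highest was the same in both libraries for 7 of the 9 measured genes, counting cluster 0 as the counterpart of SSPC-1-like cells. The exceptions were *Fgfr1*, for which the control's highest type has no separate cluster in the other library, and *Fgfr3*, whose 2 highest types did not differ. With cluster 6 counted, *Fgf7* and *Fgf10* also had another highest group in the Piezo1 fl/fl library. At least a 2-fold lead of the highest over the next type was seen for 3 of 9, *Fgf1*, *Fgf9* and *Fgf18*, in each library. Among all genes with enough UMIs, the share with such a lead was 21.3% in the control and 22.4% in the other library.

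An early step of the study compares SSPC-1 with SSPC-2. In the control, all 6 ligands were higher in SSPC-1-like cells, 1 receptor was lower, and the other 2 measured receptors differed by less than 2-fold. A ratio was counted as past 2-fold at an absolute log2 value of at least 1, with 0.5 UMIs added to both counts and at least 20 UMIs in all. By this rule 6 of 9 genes were higher and 1 of 9 was lower, against 15.2% and 5.72% of all genes compared. *Fgf1*, *Fgf9*, *Fgf10* and *Fgf18* reached 20 UMIs only through the SSPC-1-like cells (7, 1, 3 and 10 UMIs in SSPC-2-like cells), so they could only be counted as higher, and nothing is read from the count.

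*Fgf18* had the largest of these ratios, with a log2 value of 7.47 (6.66 to 8.61), and was followed by *Fgf9* at 5.46 (3.5 to 11.4, against 1 UMI) and *Fgf10* at 5.4 (4.04 to 7.92, against 3 UMIs). *Fgf2* stood at 2.32 (2 to 2.67), *Fgf1* at 2.08 (0.916 to 3.59) and *Fgf7* at 1.47 (1.26 to 1.69). *Fgfr3* ran the other way, at -3.67 (-4.19 to -3.23). *Fgfr1* (0.59) and *Fgfr2* (-0.36, from -0.464 to -0.257) differed by less than 2-fold, so both populations carried these receptors.

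**Figure D2:**
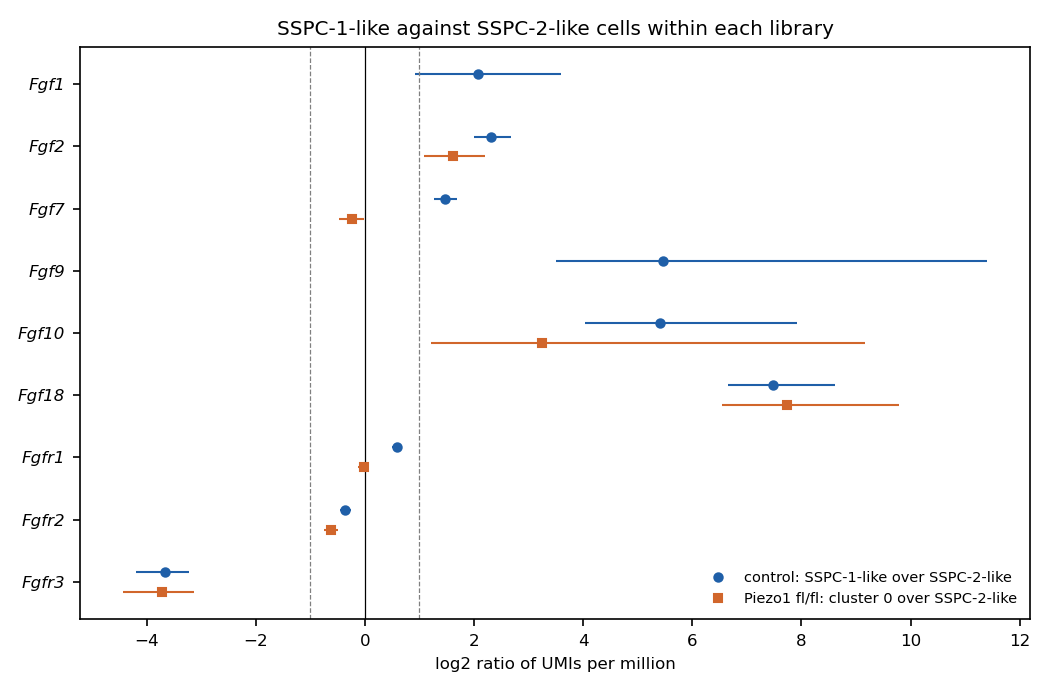
Log2 ratio of levels (CPM), SSPC-1-like over SSPC-2-like in the control library and cluster 0 over SSPC-2-like in the Piezo1 fl/fl library, for each FGF gene compared, with 95% intervals for counting error. *Fgf18* lies at 7.47 and 7.74 and *Fgfr3* at -3.67 and -3.72, whereas *Fgf7* lies at 1.47 and -0.24.

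In the Piezo1 fl/fl library, cluster 0 over SSPC-2-like cells gave the same signs for *Fgf18* (7.74, from 6.55 to 9.79), *Fgf10* (3.25, from 1.21 to 9.17, against 1 UMI), *Fgf2* (1.61) and *Fgfr3* (-3.72). *Fgf7* differed little between them, at 87.3 and 103 CPM (-0.24, from -0.466 to -0.0145). By the same rule 3 of 7 genes were higher and 1 of 7 was lower, against 12.6% and 6.04% of all genes. *Fgf1* and *Fgf9* had too few UMIs there, and *Fgf10* and *Fgf18* had enough only through cluster 0.

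Between the fibroblast groups the ligands split. In the control, *Fgf7* was lower in Pi16 than in Gdf10 fibroblast-like cells (69.8 and 223 CPM, log2 ratio -1.68, from -1.86 to -1.5) and so was *Fgf10* (26 and 53.9 CPM, -1.05). *Fgf9* was higher (17.6 and 3.48 CPM, 2.3), as was *Fgfr3* (7.2 and 1.86 CPM, 1.89). Both directions thus held 2 of 9 genes, against 4.85% of all genes for higher and 6.64% for lower. *Fgf9* and *Fgfr3*, with 15 and 8 UMIs in Gdf10 fibroblast-like cells, reached 20 UMIs only through the Pi16 cells. Of the 36 *Fgfr3* UMIs of the control Pi16 fibroblast-like cells, 27 lay in 13 cells with at least 10 UMIs of *Col2a1*, the main collagen gene of cartilage. The 7 cartilage markers summed to 2487 CPM in this group, with *Col2a1* at 1683 CPM as the most abundant, and to 130 CPM in its Piezo1 fl/fl counterpart.

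Among Piezo1 fl/fl cells 1 of 8 genes was higher in Pi16 fibroblast-like cells, *Fgf9* (12.8 and 4.23 CPM), and 1 of 8 was lower, *Fgf7* (43.4 and 114 CPM). The shares of all genes were 4.11% and 7.83%. The Pi16 group pooled 2 Piezo1 fl/fl clusters that differed, *Fgf9* being at 18.3 CPM in cluster 3 and 2.51 CPM in cluster 8, and *Fgf2* at 67.9 and 194 CPM, so that cluster 3 alone carried the *Fgf9* difference. *Fgf10*, at 13.9 and 19.1 CPM, did not reach 2-fold there (-0.45), and *Fgfr3* had too few UMIs to compare. The Pi16 and Gdf10 groups held 2 and 9 *Fgfr3* UMIs.

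Tendon-like cells carried the SSPC-1 markers too, and were compared with SSPC-1-like cells for their FGF genes. In the control, *Fgf9* was higher in tendon-like than in SSPC-1-like cells (90.6 and 12.4 CPM, log2 ratio 2.86, from 2.4 to 3.36) and so was *Fgf1* (40.5 and 5.87 CPM, 2.78). *Fgfr2* was 36.8-fold lower (7.15 and 278 CPM, log2 ratio -5.2, from -6.41 to -4.35) and *Fgf18* 8.13-fold lower (42.9 and 352 CPM). *Fgf2*, *Fgf7*, *Fgf10* and *Fgfr3* were also lower, which made 2 of 9 higher and 6 of 9 lower, against 4.32% and 12.4% of all genes. *Fgf7*, *Fgf10*, *Fgfr2* and *Fgfr3*, with 13, 2, 9 and 3 UMIs in tendon-like cells, reached 20 UMIs only through the SSPC-1-like cells, and nothing is read from the count. In the Piezo1 fl/fl library tendon-like cells had 1 of 8 genes higher than cluster 0, *Fgf9* (log2 ratio 4.36), and 4 of 8 lower, *Fgf7*, *Fgf18*, *Fgfr2* (-4.64) and *Fgfr3* (-1.28, from -3.85 to 0.248), against 3.9% and 9.61%. Here *Fgf9* had 9 UMIs in cluster 0, and *Fgfr2* and *Fgfr3* had 16 and 3 in tendon-like cells, so each passed through its higher group alone.

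For the libraries of the 2 genotypes, the deleted gene was looked at first. *Piezo1* had 132 UMIs in retained control cells (5.18 CPM, 4.33 to 6.14) and 69 in Piezo1 fl/fl cells (2.41 CPM, 1.88 to 3.06), a log2 ratio of -1.1 (-1.54 to -0.67). By type it stood at 6.23 CPM (33 UMIs) and 1.56 CPM (4 UMIs) in SSPC-2-like cells and at 28.1 and 17.2 CPM in endothelial-like cells. Pi16 fibroblast-like cells had 5.2 and 3.53 CPM, Gdf10 fibroblast-like cells 2.32 and 1.51 CPM (10 UMIs in each), and SSPC-1-like cells and cluster 0 had 2.39 and 1.02 CPM. Of these types, the intervals of the 2 libraries were apart in SSPC-2-like cells and overlapped in the others. The UMIs may come from outside the deleted stretch, so that these levels check the labels only in part.

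Over whole libraries, *Fgfr3* was at 31.5 CPM in the control and 10.3 CPM in Piezo1 fl/fl cells, and *Fgfr2* at 143 and 84.6 CPM. SSPC-2-like cells made up 16.8% of retained cells in the control and 7.71% in the other library. Levels within types were therefore compared.

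**Figure D3:**
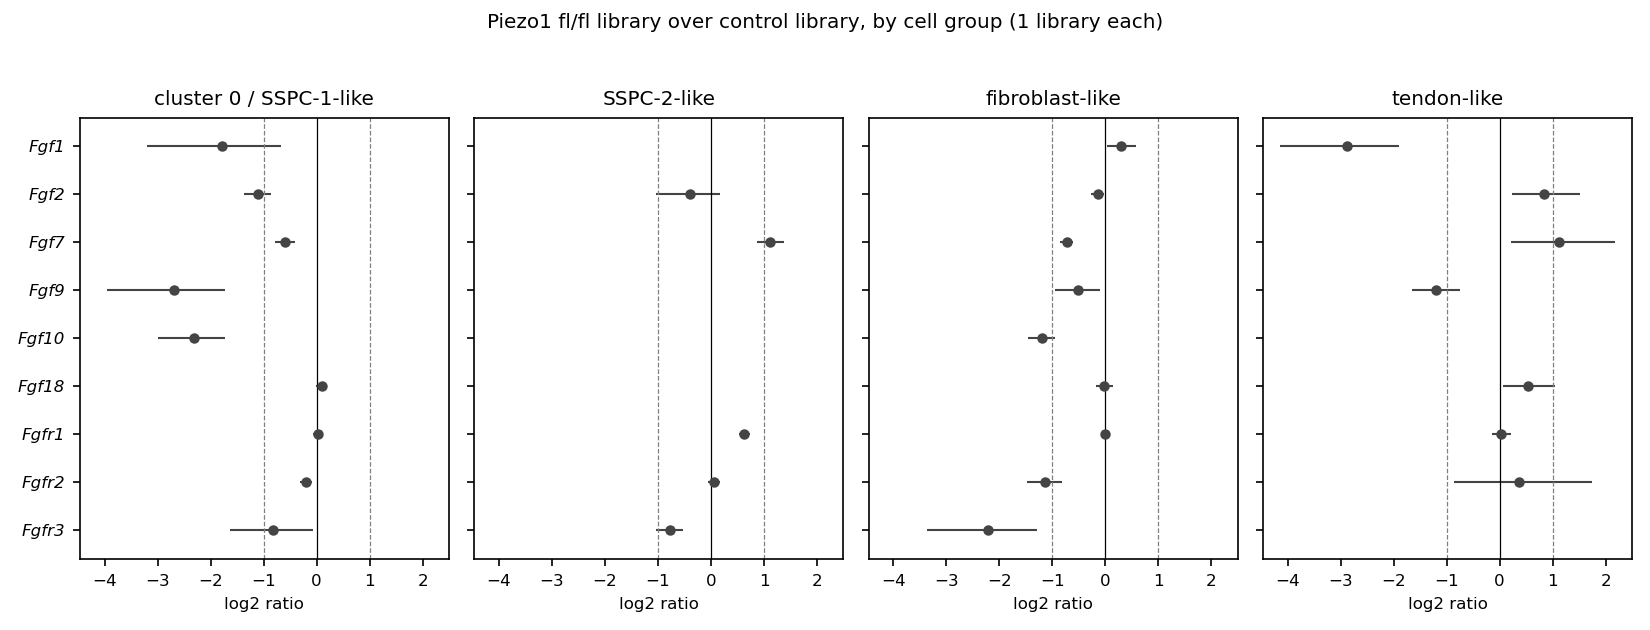
Log2 ratio of levels (CPM) of each FGF gene in Piezo1 fl/fl over control cells, within SSPC-2-like, fibroblast-like and tendon-like cells and for cluster 0 over SSPC-1-like cells, with 95% intervals for counting error (1 library a genotype). *Fgf7* lies at 1.12 in SSPC-2-like cells and at -0.6 for cluster 0 over SSPC-1-like cells, and *Fgf18* lies at 0.1 for the latter.

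Cluster 0 of the Piezo1 fl/fl library and the SSPC-1-like cells of the control differed by less than 2-fold in *Fgf18* (log2 ratio 0.1, from -0.00171 to 0.192), *Fgfr1* (489 and 480 CPM) and *Fgfr2* (241 and 278 CPM). The rarer ligands were lower in cluster 0. *Fgf10* was at 5.49 against 27.8 CPM (-2.32, from -3 to -1.73), *Fgf9* at 1.83 against 12.4 CPM (-2.69), *Fgf1* at 1.63 against 5.87 CPM (-1.79) and *Fgf2* at 39.9 against 86.3 CPM (-1.11, from -1.37 to -0.863). These were 4 of 9 genes, against 6.64% of all genes past 2-fold either way. *Fgf1* and *Fgf9*, with 8 and 9 UMIs in cluster 0, passed the minimum only through the control cells. The 6 SSPC-1 markers also summed to less in cluster 0 (7740 CPM) than in SSPC-1-like cells (11699 CPM), cells of cluster 0 had fewer UMIs (median 3948 against 5166), and 6 early response genes (*Fos*, *Fosb*, *Jun*, *Junb*, *Egr1* and *Ier2*) summed to 15189 against 12074 CPM. The part of these differences in the FGF levels was not tested.

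In SSPC-2-like cells *Fgf7* was higher in the Piezo1 fl/fl library, at 103 against 47.6 CPM (log2 ratio 1.12, from 0.863 to 1.37), the only 1 of 5 genes past 2-fold, against 5.92% of all genes. *Fgfr1* was at 496 against 320 CPM (0.63, from 0.527 to 0.739), *Fgfr3* at 65.6 against 112 CPM (-0.77, from -1.03 to -0.525), and *Fgfr2* at 372 against 356 CPM (0.063). The 8 mature osteoblast markers summed to 11154 CPM in these cells against 4279 CPM in the control's, led by *Ibsp*, which encodes bone sialoprotein, at 8419 against 2755 CPM. Since the control had a separate mature osteoblast-like cluster, it was also added to the control SSPC-2-like cells, which left *Fgf7* at 1.18, *Fgfr1* at 0.47 and *Fgfr3* at -0.67. With cells thinned to 2500 UMIs, *Fgf7* no longer reached 2-fold (0.68), nor did it with the mean of the cells' own shares.

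In fibroblast-like cells *Fgf10* was lower in the Piezo1 fl/fl library (16.9 against 38.9 CPM, log2 ratio -1.2, from -1.46 to -0.941), as were *Fgfr2* (10.9 against 24.2 CPM, -1.14) and *Fgfr3* (0.986 against 4.73 CPM, -2.21). These were 3 of 9 genes, against 5.06% of all genes, *Fgfr3* (11 UMIs in the Piezo1 fl/fl cells) passing the minimum through the control alone. The count fell to 1 under most other settings, *Fgf10* or *Fgfr3* being the gene that stayed, and to 2 with doublets kept, types from marker counts per cell and the mean of the cells' own shares. *Fgfr2* stayed past 2-fold only with a minimum of 50 UMIs. The mix of groups differed between the libraries, and by group *Fgf10* was past 2-fold in Gdf10 (-1.5) and not in Pi16 fibroblast-like cells (-0.9), while *Fgfr2* was past it in Pi16 (-1.52) and not in Gdf10 cells (-0.97). The early response genes summed to 6335 against 12487 CPM in Pi16 and to 14409 against 13924 CPM in Gdf10 fibroblast-like cells. In Pi16 cells the mature osteoblast markers summed to 96.1 against 555 CPM and the tendon markers to 331 against 1425 CPM. In Gdf10 cells these sums were 130 against 135 CPM and 752 against 441 CPM. The part of these genes and markers was not tested. Without the cells with at least 10 *Col2a1* UMIs, *Fgf10* remained past 2-fold (-1.22), whereas *Fgfr2* (-0.82) and *Fgfr3* (-0.9) did not. *Fgf18* (60.6 against 61.6 CPM) and *Fgfr1* (389 against 390 CPM) hardly differed. The unnamed cluster 6 lies outside this comparison and held 22.5% of the *Fgf10* UMIs of the Piezo1 fl/fl library. It was at 33.4 CPM of *Fgf10*, 20.6 CPM of *Fgfr2* and 2.46 CPM of *Fgfr3*.

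In tendon-like cells 3 of 7 genes were past 2-fold, against 9.13% of all genes. *Fgf1* was at 5.28 against 40.5 CPM (log2 ratio -2.88, from -4.15 to -1.9) and *Fgf9* at 39.3 against 90.6 CPM (-1.2), while *Fgf7* was at 22.9 against 10.3 CPM (1.11, from 0.212 to 2.18, on 39 and 13 UMIs). The 7 tendon markers summed to 19709 CPM in the Piezo1 fl/fl and 28891 CPM in the control tendon-like cells, and the early response genes to 9060 and 12455 CPM. Their part in these differences was not tested. *Fgf1* and *Fgf7* had 9 and 13 UMIs in one of the libraries, and so passed the minimum through the other alone. *Fgf1* in mural-like cells, where it is highest, was within counting error (-0.16). *Fgfr2* was at 11.6 against 5.37 CPM in mural-like cells, on 19 and 7 UMIs (1.05, from -0.203 to 2.6), an interval that includes 0. *Fgf1* leaned the other way in the pooled Gdf10 fibroblast-like cells (0.497, from 0.138 to 0.873). Their Piezo1 fl/fl clusters 1 and 9 were at 36.7 and 8.59 CPM, against 21.4 CPM in the control, so only cluster 1 leaned that way.

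Beyond the 10 genes, 49 other genes listed for the pathway were followed. They were further FGF genes (among them intracellular homologues such as *Fgf14*), co-receptors and the decoy receptor, and heparan sulfate carriers. Adaptors, genes listed as feedback inhibitors and the ETV transcription factors made up the rest. In the control, 33 had enough UMIs over both progenitor groups. Of these, 12 were higher in SSPC-1-like cells and 2 were higher in SSPC-2-like cells, where the shares of all genes were 15.2% and 5.72%. *Fgf16* and *Spred3* (1 and 6 UMIs in SSPC-2-like cells) reached the minimum with few UMIs there, and could only be counted as higher. Their median log2 ratio was 0.31, against 0.24 for all genes. The 3 furthest were *Fgf16* (4.13 and 0.189 CPM, 3.9, from 1.8 to 9.83, against 1 UMI), *Fgf14*, an intracellular FGF homologue (37 and 4.34 CPM, 3.06), and *Gpc3*, which encodes the heparan sulfate carrier glypican-3 (464 and 55.5 CPM, 3.06). On the side of SSPC-2-like cells were the syndecan genes *Sdc2* (263 and 882 CPM, -1.74) and *Sdc3* (15.4 and 38.9 CPM, -1.33). The other carrier past 2-fold was *Gpc6*, a further glypican gene (50.2 and 6.98 CPM, 2.83), whereas *Sdc1* (0.67), *Sdc4* (-0.05), *Gpc1* (0.08) and *Gpc4* (0.79) were within it.

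In the Piezo1 fl/fl library 31 of the 49 were compared, and 7 were higher and 2 lower in cluster 0 than in SSPC-2-like cells (12.6% and 6.04% of all genes were, and the median was -0.077, against 0.17 for all genes). *Fgf14* (34.6 and 2.34 CPM, log2 ratio 3.77), *Gpc3* (289 and 50 CPM, 2.52) and *Gab1*, an adaptor gene (120 and 30.1 CPM, 1.99), were furthest. *Sdc2* (228 and 953 CPM, -2.06) and *Sdc3* (-1.59) were again lower. *Fgf14* had 6 UMIs in SSPC-2-like cells and so passed the minimum through cluster 0 alone.

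**Figure D4:**
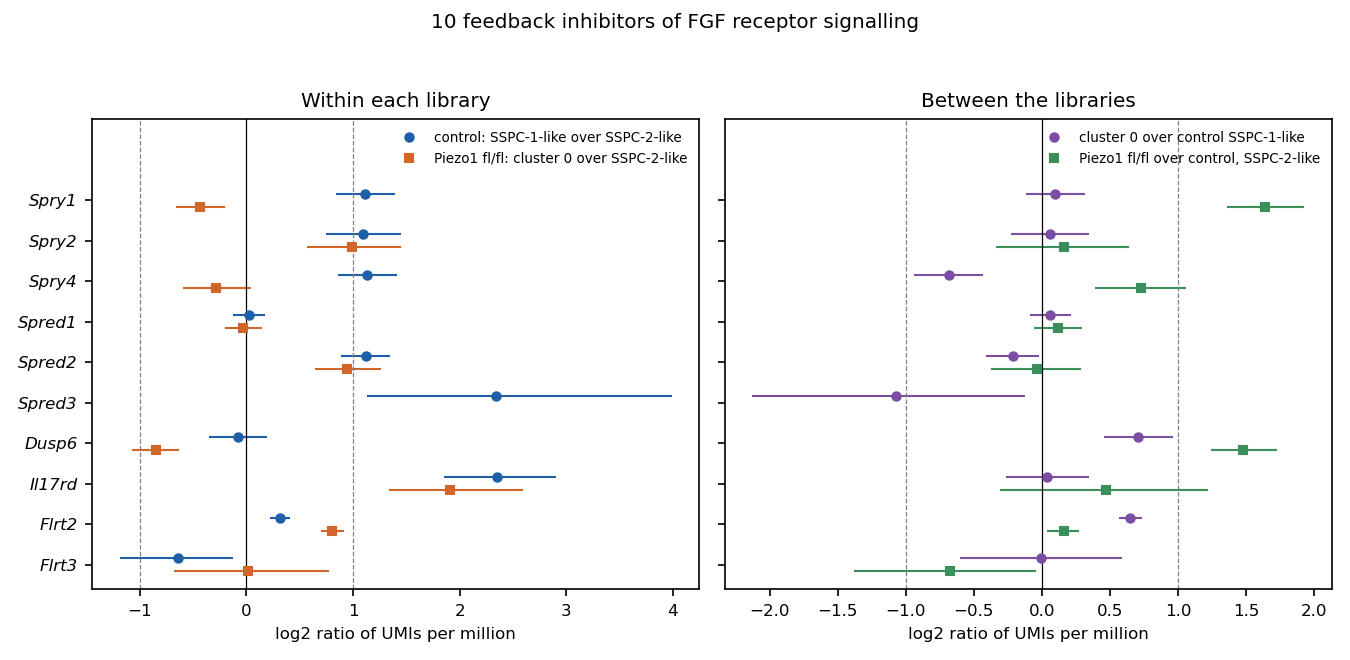
Log2 ratios of levels (CPM) for the 10 genes listed as feedback inhibitors, where compared, with 95% intervals for counting error. Progenitor groups of the control library (SSPC-1-like, SSPC-2-like) and of the Piezo1 fl/fl library (cluster 0, SSPC-2-like) are set against each other. The comparisons are within each library and between the libraries. Levels behind the *Spry1* ratios, in this order of groups, were 71.1 and 32.8 CPM in control and 76.1 and 103 CPM in Piezo1 fl/fl cells.

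The 10 genes listed as feedback inhibitors were described as a group. *Flrt2* and *Flrt3* are on this list though they are not established inhibitors, and neither was past 2-fold in these comparisons. In the control, 6 of 10 were higher in SSPC-1-like than in SSPC-2-like cells and none was lower by 2-fold, against 15.2% and 5.72% of all genes (median log2 ratio 1.1, against 0.24). The 6 were *Spry1*, *Spry2*, *Spry4*, *Spred2*, *Il17rd* and *Spred3*, the last on 28 and 6 UMIs and so only through its higher group. In the Piezo1 fl/fl library 1 of 9 was higher in cluster 0, *Il17rd* (38.9 and 10.2 CPM), against 12.6% of all genes, and the median was 0.017. *Spry2* (1.99-fold, 2.13-fold in the control) and *Spred2* (1.92-fold, 2.17-fold in the control) fell just short with nearly unchanged ratios, and *Spred3* had too few UMIs. *Spry1* (0.74-fold) and *Spry4* (0.822-fold) no longer leaned toward the SSPC-1 side.

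Of the last 2, *Spry1* differed mainly in SSPC-2-like cells, and *Spry4* in both groups (70.4 and 43.7 CPM on the SSPC-1 side, 32.1 and 53.1 CPM in SSPC-2-like cells). From the control to the Piezo1 fl/fl library, 4 of 31 pathway genes were past 2-fold in SSPC-2-like cells, all 4 higher, against 5.92% of all genes past 2-fold either way. *Etv4*, an ETS factor gene turned on by FGF signalling, went from 1.7 to 9.38 CPM (9 and 24 UMIs, log2 ratio 2.42, from 1.31 to 3.75), and passed the minimum through the Piezo1 fl/fl library alone. *Spry1* went from 32.8 to 103 CPM (1.64, from 1.36 to 1.93) and *Dusp6*, which encodes a phosphatase of ERK, from 46.8 to 131 CPM (1.48, from 1.24 to 1.73). The fourth was *Gpc6*. The median of the 31 was 0.028, against 0.013 for all genes. The parts of the list ran both ways, with medians from -0.61 (further FGF genes) to 0.474 (ETV factors), so nothing is read from it. The 6 early response genes summed to 8870 and 9197 CPM in these cells. Whether the higher mature osteoblast markers of this cluster play a part was not tested.

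In cluster 0 against SSPC-1-like cells, 1 of 34 pathway genes was higher in the Piezo1 fl/fl library, *Etv4* (5.7 against 1.52 CPM, on 28 and 7 UMIs), and 2 were lower, *Gpc1* (17.5 against 38.7 CPM) and *Spred3* (2.85 against 6.09 CPM), where 6.64% of all genes were past 2-fold. In fibroblast-like cells 0 of 33 were higher and 2 lower, the glypican genes *Gpc1* (1.43 against 3.01 CPM) and *Gpc6* (36 against 73.8 CPM), where the share of all genes was 5.06%. Of these genes, *Etv4*, *Spred3* (14 and 28 UMIs) and *Gpc1* in fibroblast-like cells (16 and 28 UMIs) passed the minimum through their higher library alone. Both counts lie near these shares.

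**Figure D5:**
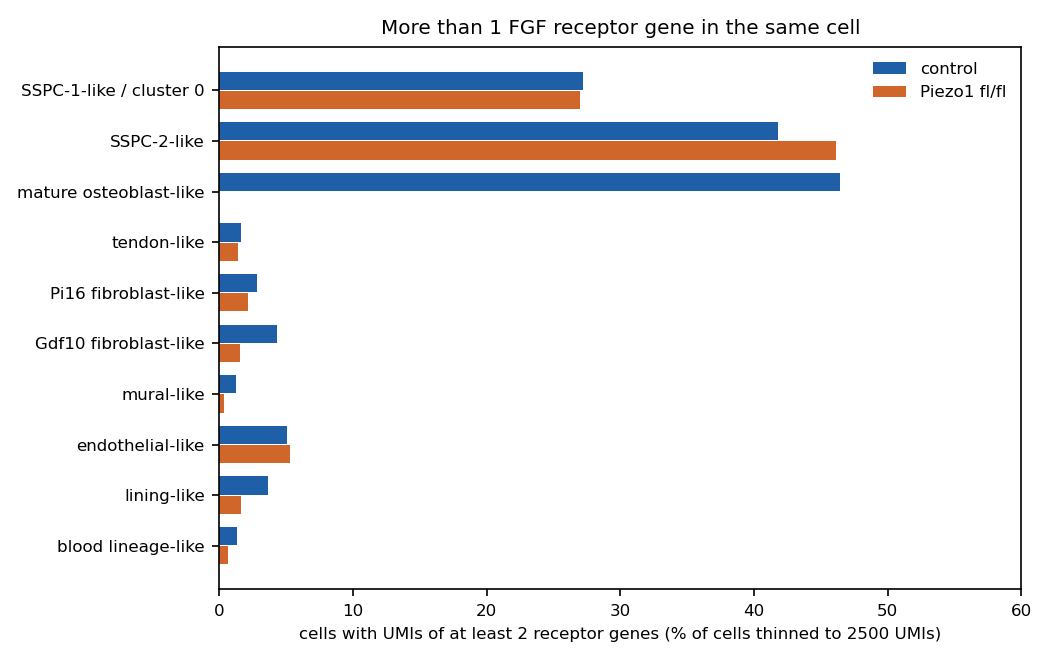
Percentage of cells, each thinned to 2500 UMIs, in which UMIs of 2 or more FGF receptor genes were seen, by cell type and library. SSPC-2-like cells reach 41.8% and 46.1%, and every other named type of at least 50 cells, apart from SSPC-1-like cells, cluster 0 and mature osteoblast-like cells, stays at 5.26% or lower.

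Single cells were then asked how many receptor genes they carried. At 2500 UMIs per cell, 41.8% of control SSPC-2-like cells (298 of 713) had UMIs of 2 or more receptors, as did 46.4% of mature osteoblast-like (26 of 56) and 27.2% of SSPC-1-like cells (195 of 718). The Piezo1 fl/fl shares were 46.1% of SSPC-2-like cells (170 of 369) and 27% of cluster 0 (241 of 891). In the other named types of at least 50 cells, at most 5.08% of control and 5.26% of Piezo1 fl/fl cells did. The common pair was *Fgfr1* with *Fgfr2*, seen together in 31.1% of the control's SSPC-2-like cells and in 26.5% of its SSPC-1-like cells. A missing UMI at this depth does not show that a receptor is absent.

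Last, each gene's levels over the 10 named control types were set beside those of 10612 other genes, as a description, since the types of a library share its depth and preparation. *Fgf18* was most like *Dio2* (Pearson r 0.947 in the control and 0.924 over 9 Piezo1 fl/fl types), *Axin2*, a target of Wnt signalling (0.943 and 0.903), and *Ccn3* (0.937 and 0.953). *Fgfr2* was most like *Wnt16* (0.974 and 0.951), *Runx2* (0.939 and 0.933) and *Ostn* (0.931 and 0.972). Of these, *Dio2* and *Runx2* were themselves naming markers. *Fgf9* was most like the tendon marker *Kera* (0.956 and 0.883) and *Fgf7* most like *Mme* (0.953 and 0.912). *Fgf2* was nearest to *Lmx1a* (0.972 and 0.925) and *Fgf10* to *Entpd2* (0.975 and 0.912). Other likenesses were much weaker in the Piezo1 fl/fl library, among them that of *Fgf1* with *Xirp2* (0.938 and 0.0759), of *Fgf10* with *Csmd1* (0.975 and 0.477), of *Fgf2* with *Slc4a4* (0.948 and 0.589), of *Fgf9* with *M1ap* (0.948 and 0.582), of *Fgfr1* with *Zfp267* (0.945 and 0.471) and of *Fgfr3* with *Lrrc1* (0.922 and 0.472). For *Fgf1*, *Fgfr1* and *Fgfr3*, the values of *Suclg1* (0.935 and 0.803), *Ift46* (0.911 and 0.9) and *Samd5* (0.903 and 0.886) were high in both.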

How the data were processed

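The authors deposited, per library, whole-number UMI counts of each gene in each cell, without normalization. The labels name fastp, UMI-tools, STAR and Seurat 4.0.3, and the genome build and annotation of the counts are not given in the sources used here. Barcodes passed with between 1000 and 5000 genes if mitochondrial UMIs made up less than 25%, and Scrublet (scanpy 1.11.5, expected rate 0.05) removed doublets, marking 46 of 5551 control and 67 of 6784 Piezo1 fl/fl barcodes. The smallest barcodes held 501 and 502 UMIs.

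Each library was clustered alone with Seurat 5.3.0 in R 4.3.3 (LogNormalize, 2000 features by vst, of which the FGF and pathway genes were left out, 30 principal components, 20 in the graph, resolution 0.4). Clusters were named by the mean log2 ratio of each class's markers over the other clusters: the top class needed a mean of 2, 3 or more detected markers, a lead of 0.5 over the second class and leading genes that did not favour another class. These naming thresholds were set after the clusters were seen. Types under 50 cells were not compared.

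UMIs were summed per type and divided by the type total. Levels have exact Poisson, ratios exact conditional and shares exact Clopper-Pearson 95% intervals (scipy 1.17.1), for counting error only. The shares of cells with several receptor genes were given no interval. All 10 gene identifiers matched GENCODE vM21. The genes, lists and markers were chosen with earlier results of these data known. Values are given for the 9 measured FGF genes, though not for each in every comparison, and UMI totals only for *Fgfr4*. They are also given for the 3 pathway genes furthest past 2-fold a direction, and for up to 3 genes of highest Pearson r of log2(CPM + 10). The early response genes, and the feedback inhibitors and heparan sulfate carriers outside that rule, were chosen after their values were seen. The highest types and the comparisons of SSPC-1 with SSPC-2 and between libraries (SSPC-1, SSPC-2 and fibroblast-like cells) were recomputed under 11 other settings and 2 more added after seeing the data. The other values were not.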

Additional observations from a re-analysis of the deposited data

Results flagged for a closer look

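The difference between the libraries ran in opposite directions in different cell types for 3 ligands, with counting intervals clear of 0 on both sides. *Fgf7* was higher in the Piezo1 fl/fl library in SSPC-2-like cells (log2 ratio 1.12) and in tendon-like cells (1.11), but lower in cluster 0 than in control SSPC-1-like cells (-0.596) and in Gdf10 (-0.973) and Pi16 (-0.684) fibroblast-like cells. The lower values are within 2-fold. The value in SSPC-2-like cells fell below 2-fold with thinned cells and with the mean of the cells' own shares. *Fgf1* was lower in cluster 0 than in SSPC-1-like cells (-1.79) and in tendon-like cells (-2.88), and higher, within 2-fold, in Gdf10 fibroblast-like cells (0.497). This Gdf10 group pooled Piezo1 fl/fl clusters 1 and 9, at 36.7 and 8.59 CPM of *Fgf1* against 21.4 CPM in the control. Cluster 1 alone thus carried the higher value. *Fgf2* was lower in cluster 0 than in SSPC-1-like cells (-1.11) and, within 2-fold, in Pi16 fibroblast-like cells (-0.219), and higher in tendon-like cells (0.844, also within 2-fold). The Pi16 value pooled Piezo1 fl/fl clusters 3 and 8, at 67.9 and 194 CPM of *Fgf2*, on either side of the control's 131 CPM. Within libraries, *Fgf7* was higher in SSPC-1-like than in SSPC-2-like control cells (1.47), and slightly lower in cluster 0 than in SSPC-2-like Piezo1 fl/fl cells (-0.242). Each type is 1 sample a genotype, so these differences between types were not tested.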

How the results depend on the processing

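The 11 other settings and 2 more added after seeing the data included a minimum of 50 UMIs, which changes no ratio. Under the rest, 349 log2 ratios were computed again. No ratio past 2-fold changed sign, 274 stayed within the counting interval of the reported value and 75 did not. *Fgf18* in SSPC-1-like over SSPC-2-like control cells ranged from 5.35 to 8.01 and *Fgfr3* from -4.68 to -3.55. The number of FGF genes with the same highest type in both libraries fell from 7 to 4 at resolution 0.2. In SSPC-2-like cells the count past 2-fold between libraries was 1, and became 3 at resolution 0.8 (*Fgf7*, *Fgf18*, *Fgfr1*), with 500 to 6000 genes (*Fgf1*, *Fgf7*, *Fgf18*), and, as *Fgf7*, *Fgf18* and *Fgfr3*, under 10% mitochondrial UMIs and with the FGF and pathway genes in the principal components, 2 with types from marker counts per cell, and 0 with the mean of the cells' own shares and with thinned cells. In fibroblast-like cells it was 3, and became 1 at resolutions 0.2 and 0.8, with 500 to 6000 genes, under 10% mitochondrial UMIs, with the FGF and pathway genes in the components, with both libraries clustered together, with thinned cells, and without the *Col2a1* cells, which was added after seeing the data, and 2 with doublets kept (*Fgf7*, *Fgf10*), with types from marker counts per cell and with the mean of the cells' own shares (*Fgf10*, *Fgfr3* in both). The causes of these changes were not tested. The *Col2a1* cells held 27 of the 36 *Fgfr3* UMIs of control Pi16 fibroblast-like cells, so leaving them out tests no cause. In 5 of the settings (resolutions 0.2 and 0.8, under 10% mitochondrial UMIs, doublets kept, FGF and pathway genes in the components) no Piezo1 fl/fl cluster took the SSPC-1 class, so no comparison with cluster 0 could be made. No paired analysis was possible because each genotype has 1 library, and for the same reason no replicate could be left out. Depth limits *Fgf9*, *Fgf10*, *Fgf1* and *Fgf18* in SSPC-2-like cells, where 1 to 10 UMIs were counted.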
